A study of Homo sapiens with 8 samples.

Results

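The genes PCAT1, CCAT1, CASC8, CASC11 and PVT1, 5 long noncoding RNA genes around MYC at 8q24, were followed in precision run-on sequencing (PRO-seq) of HCT116 cells. They were chosen by their symbols among the 23193 rows that each of the 2 count tables holds on all chromosomes, and all 5 were found on chromosome 8. The list was drawn up with earlier results of these libraries known, so the values below describe these 5 genes and the p-values are not independent support for a pattern that led to their choice. HCT116 is a human colorectal carcinoma line. PRO-seq labels RNA that engaged RNA polymerase is making in isolated nuclei, so the reads follow transcription and not the stock of finished RNA. The 8 libraries came from wild-type (WT) cells in normoxia, WT cells in 1% oxygen for 90 min (hypoxia), HIF1A-/- cells in normoxia and HIF1A-/- cells in the same hypoxia, with 2 biological replicates of each and the DMSO vehicle in all. The HIF1A-/- cells are a derivative line whose HIF1A gene was disrupted by homologous recombination. Effects of the disruption and of a line grown apart from its parent cannot be told apart with 1 such line.

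MYC is a transcription factor that drives growth and ribosome production, and in colorectal cancer cells it is kept high by Wnt signalling through distant enhancers. The desert upstream of MYC holds such enhancers and colorectal cancer risk variants, and several long noncoding RNAs are transcribed from it. HIF1A is the oxygen-regulated subunit of hypoxia-inducible factor and is known to oppose MYC at some of its targets, which makes the transcription units around MYC of interest in this comparison.

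By position on GRCh37, 4 of the 5 genes lie before MYC in chromosome order and PVT1 after it. PCAT1, first described in prostate cancer, was counted over a gene body of 6861 bp at chromosome 8, 128026399 to 128033259, plus strand, and the centre of its start window lay 722.9 kb before that of MYC. CCAT1, which is transcribed from an enhancer region active in colorectal tumours, was counted over 10887 bp from 128219626 to 128230512 on the minus strand, 517.3 kb away. CASC8, named for a cancer susceptibility region, covered 37790 bp from 128455594 to 128493383 on the minus strand at a distance of 254.4 kb. CASC11 covered 2774 bp from 128742439 to 128745212 on the minus strand and starts 2.551 kb before MYC, pointing away from it. PVT1, a host gene of microRNAs that is often gained together with MYC in tumours, covered 305721 bp from 128807779 to 129113499 on the plus strand and starts 58.46 kb after MYC. Each start window (TSS) was 551 bp long and each gene body began after a gap, so reads of the paused polymerase and of the elongating polymerase were counted apart.

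The GENCODE annotation of the same build calls all of these genes lncRNAs, and most of each body is intron. Annotated exons on the same strand cover 19.98% of the PCAT1 body, 21.47% of the CCAT1 interval, 2.397% of CASC8, 26.32% of CASC11 and 7.66% of PVT1. The CCAT1 interval lies inside the gene that this annotation calls CASC19. On the opposite strand the annotation places PCAT1 over the CCAT1 interval, with no exon in it, while the bodies of PCAT1, CASC8 and CASC11 have no annotated gene on the opposite strand. The gene that it calls PCAT1 also overlaps the intervals of PRNCR1, CASC21 and CCAT2, neighbours on the plus strand. The PCAT1 body counted here is therefore a part of that annotated gene. The motif ACGTG or GCGTG, the core that hypoxia-inducible factors bind, was searched on both strands of the start windows. It was found 2 times in PVT1, 2 times in CASC11 and 1 time in PCAT1, and not in CCAT1, CASC8 or MYC. Of all 23193 start windows 68.7% hold it, so its presence is common.

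Library totals over gene bodies lay between 18125234 and 23622392 reads and those over start windows between 2783581 and 5966348. The start window totals were lowest in replicate 1 of HIF1A-/- cells at both oxygen levels. Of 10 colon epithelium markers, 6 were above 1 CPM (reads scaled to a library total of 1000000) in every WT library and 7 in every HIF1A-/- library, and their summed level was 852 to 1146 CPM in WT and 1097 to 1235 CPM in HIF1A-/- cells. Summed fibroblast markers lay between 20.8 and 58.2 CPM, leukocyte markers between 10.1 and 16.4 CPM and endothelial markers between 8.23 and 30.9 CPM over all libraries. HIF1A itself had 129 to 172 gene body CPM in all 8 libraries, and reads over its body do not test the disruption. Of 25 known HIF targets, 19 were called higher in hypoxia in WT cells by the edgeR test described below, beside 0.431% of all gene bodies. In HIF1A-/- cells 0 of the 25 were called, beside 0% of all gene bodies. There 1 of the 25 had an unadjusted p under 0.05 and DESeq2 called 0.

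PVT1 carried far more reads than the other genes. Its gene body held 1315 and 1323 CPM in WT cells in normoxia and 1268 and 1253 CPM in WT cells in hypoxia. In HIF1A-/- cells it held 1494 and 992 CPM in normoxia and 1323 and 896 CPM in hypoxia. The WT libraries were close to each other, and in HIF1A-/- cells replicate 1 was the higher library at both oxygen levels, so that the WT range lay inside the HIF1A-/- range. PVT1 ranked between 11 and 26 among all 23193 gene bodies by CPM and took 75.4% to 86.4% of all body reads within 2000 kb of MYC. This count reflects its length, since per kilobase it ranked between 2282 and 3974, with 2.93 to 4.89 RPKM (CPM per kilobase), while MYC had 19.1 to 52.2 RPKM.

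CCAT1 was the next in level. Its gene body held 20.1 and 36.5 CPM in the normoxic WT pair, 18.2 and 38.7 CPM in the hypoxic WT pair, 14.2 and 13.7 CPM in the normoxic HIF1A-/- pair and 17.8 and 12.8 CPM in the hypoxic HIF1A-/- pair. All 4 WT libraries lay above all 4 HIF1A-/- libraries, but the lowest WT value and the highest HIF1A-/- value were nearly equal. Within WT cells replicate 2 stood 1.81-fold and 2.12-fold above replicate 1, and in HIF1A-/- cells it stood at 0.964 and 0.720 of replicate 1. Compared within a replicate number, HIF1A-/- minus WT on the log2 scale was −0.50 in replicate 1 and −1.41 in replicate 2 in normoxia, and −0.04 and −1.60 in hypoxia, so most of the distance between the genotypes came from replicate 2.

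CASC11, the transcript that starts next to MYC and runs away from it, was counted in few reads. Its gene body had 19 and 47 reads in the normoxic WT pair, 28 and 80 in the hypoxic WT pair, 14 and 12 in the normoxic HIF1A-/- pair and 13 and 17 in the hypoxic HIF1A-/- pair. In CPM these were 0.918 and 2.59, then 1.47 and 3.39, then 0.636 and 0.568, then 0.639 and 0.839, and the genotypes did not overlap. The WT replicates again differed by 2.78-fold and 2.27-fold, with replicate 2 higher, while the HIF1A-/- replicates stood at 0.897 and 1.30 of each other.

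CASC8, the longest of the sparsely read genes, had 16 and 31 body reads in the normoxic WT pair, 38 and 107 in the hypoxic WT pair, 6 and 11 in the normoxic HIF1A-/- pair and 8 and 6 in the hypoxic HIF1A-/- pair. In CPM the WT pairs were 0.773 and 1.71 in normoxia and 2.00 and 4.53 in hypoxia, and the 4 HIF1A-/- libraries lay between 0.273 and 0.520. The WT hypoxia libraries were the highest of all 8 and the genotypes did not overlap. The PCAT1 body counted here was near the limit of detection, with 7 and 12 body reads in the normoxic WT pair, 5 and 16 in the hypoxic WT pair, 2 and 5 in the normoxic HIF1A-/- pair and 4 and 1 in the hypoxic HIF1A-/- pair. Its WT libraries held 0.263 to 0.677 CPM and its HIF1A-/- libraries 0.0493 to 0.236 CPM, again without overlap. PCAT1 entered the test only through replicate 2 of the WT groups, which were its only libraries above the minimum of 0.5 CPM, and CASC8 passed mainly through its WT libraries, so for these genes a lower level in HIF1A-/- cells was partly built into passing the filter.

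Per kilobase the order of the levels was PVT1, then CCAT1 at 1.17 to 3.55 RPKM, then CASC11 at 0.205 to 1.22 RPKM, and last CASC8 at 0.00722 to 0.120 RPKM and PCAT1 at 0.00719 to 0.0987 RPKM. PVT1 and CCAT1 ranges overlapped over the 8 libraries, although PVT1 was the denser gene in each of them. CASC8 and PCAT1 were not separated by their spread.

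**Figure D1:**
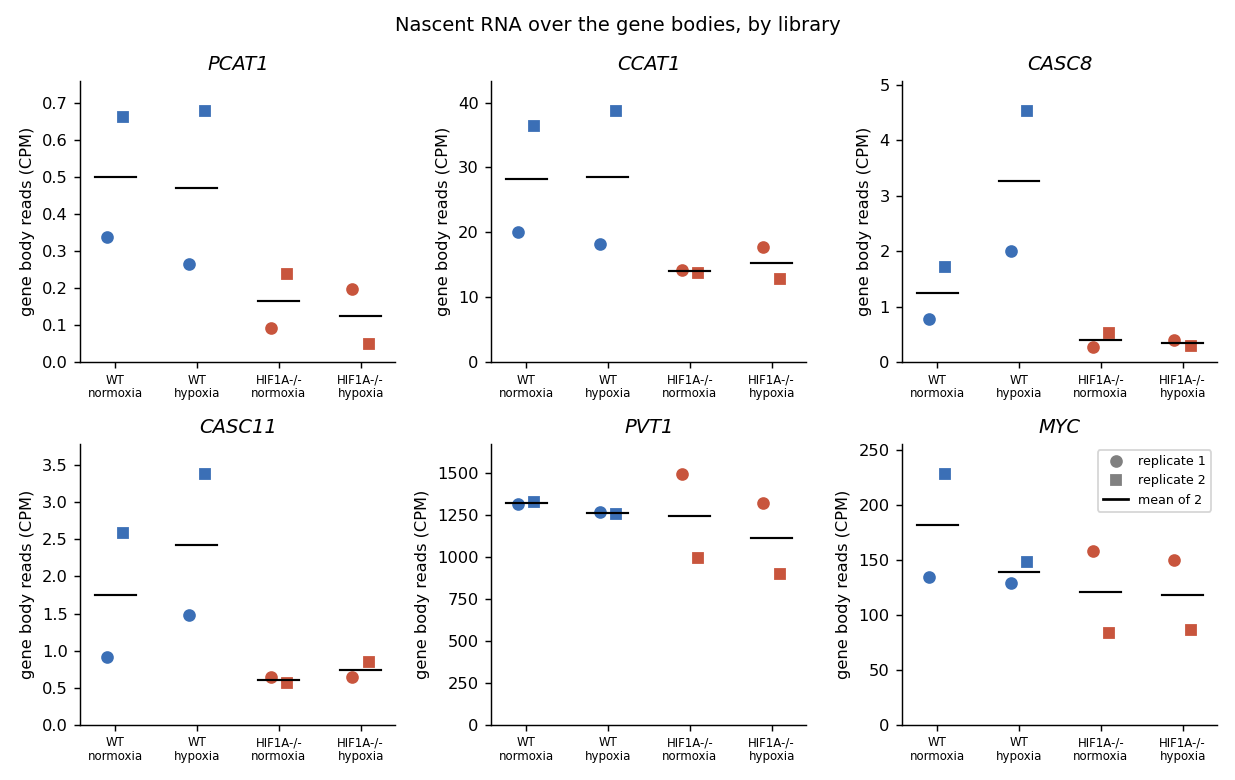
Gene body reads in CPM (vertical axis, from 0) in each library for the 5 noncoding RNA genes and MYC, by genotype and oxygen level, with replicate 1 as circles, replicate 2 as squares and the mean of 2 as a bar. WT libraries lie above all HIF1A-/- libraries for PCAT1, CCAT1, CASC8 and CASC11, and replicate 2 is the upper WT library in these 4 genes, whereas PVT1 lies at 1253 to 1323 CPM in WT cells and spreads from 896 to 1494 CPM in HIF1A-/- cells.

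The first comparison asked whether 90 min of hypoxia changed transcription of these genes in WT cells. None of the 5 gene bodies passed edgeR's quasi-likelihood test at a false discovery rate of 10%, against 0.431% of all 16686 gene bodies tested, all of which were higher. At an unadjusted p under 0.05 there was 1 of the 5, CASC8, and DESeq2 called 0. CASC8 had a log2 fold change of 1.37 (standard error 0.57) with an adjusted p of 0.897 from edgeR, and it was higher in both replicate pairs, by 1.35 and 1.39. With the replicate number as a block, its adjusted p from edgeR was 0.0860 and it was the 1 gene of the 5 called. Under that block 919 of all 16686 gene bodies were called. The difference in replicate pairs was thus alike, while the level differed about 2-fold between replicates, as given above.

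The other genes moved little or in both directions in WT hypoxia. PVT1 had a log2 fold change of −0.10, with a 95% interval from −0.70 to 0.51, and CCAT1 one of −0.02, with an interval from −0.92 to 0.88. CASC11 had 0.46 (−0.88 to 1.80) and PCAT1 −0.08 (−1.82 to 1.66). MYC, the coding gene between them, had −0.41 (−1.35 to 0.52, adjusted p = 0.897 from edgeR). The intervals of PCAT1 and CASC11, the genes with the fewest reads, were the widest.

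In HIF1A-/- cells, 0 of the 5 gene bodies were called by edgeR, beside 0% of all gene bodies, with 0 at an unadjusted p under 0.05, 0 by DESeq2 and 0 with the replicate block. The log2 fold changes were −0.21 for PVT1, 0.09 for CCAT1, −0.22 for CASC8, 0.25 for CASC11 and −0.41 for PCAT1. CASC8, which was higher in WT hypoxia in both pairs, moved by 0.50 and −0.76 in the HIF1A-/- pairs. The difference between the genotypes in the hypoxia response was itself tested. It was called for 0 of the 5 genes, beside 0.0539% of all gene bodies, with 0 at an unadjusted p under 0.05, 0 by DESeq2 and 0 with the replicate block. For CASC8 that difference was 1.596, WT minus HIF1A-/-, with a 95% interval from −0.52 to 3.71 and an adjusted p of 1.00 from edgeR. The CASC8 response was therefore not shown to differ between the genotypes.

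**Figure D2:**
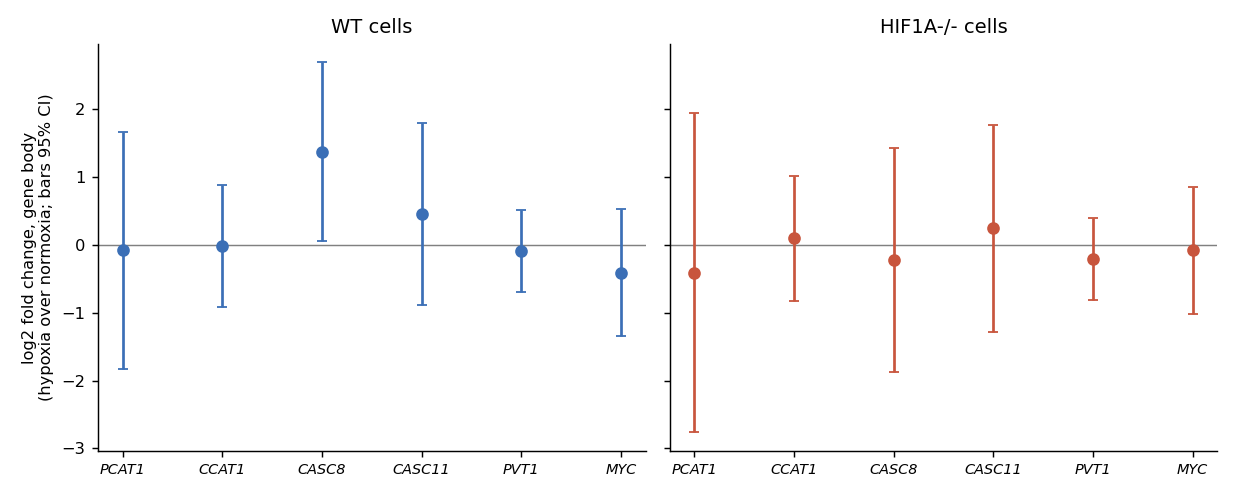
Log2 fold change of gene body reads in hypoxia over normoxia (vertical axis) for the 5 genes and MYC, in WT cells on the left and HIF1A-/- cells on the right, as points with 95% confidence intervals from edgeR. Each interval but that of CASC8 in WT cells (1.37) includes 0, and PVT1 has the narrowest ones.

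The larger differences lay between the genotypes. In normoxia all 5 genes had lower fitted gene body levels in HIF1A-/- than in WT cells, where 50.8% of all gene bodies tested were below 0. PCAT1 and CASC8 carry the limit of the filter given above. The log2 fold change was −1.63 for CASC8 (standard error 0.64), −1.58 for PCAT1 (0.86), −1.52 for CASC11 (0.63), −1.01 for CCAT1 (0.40) and −0.07 for PVT1 (0.26). None passed edgeR's test after adjustment, beside 1.78% of all gene bodies, and DESeq2 called 0. CCAT1, CASC8 and CASC11 had an unadjusted p under 0.05, and CASC8 reached the threshold once the replicate block was added, at an edgeR adjusted p of 0.0768. Under that block 1722 of all 16686 gene bodies were called.

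In hypoxia CASC8 was called lower in HIF1A-/- cells, the 1 gene of the 5, beside 4.26% of all gene bodies. Both HIF1A-/- hypoxia libraries of CASC8 lay under the minimum of 0.5 CPM, at 0.393 and 0.296 CPM. It passed the filter mainly through WT libraries, so its lower level was partly built into passing. The fitted log2 difference was −3.23 with a standard error of 0.64 and an edgeR adjusted p of 0.0455, which ran from 0.00147 to 0.302 over the alternatives, from 3.27 ± 1.79 CPM in WT to 0.345 ± 0.0689 CPM in HIF1A-/- cells (SD, n = 2 each). The call was lost without replicate 2 of WT hypoxia (adjusted p = 0.302 from edgeR) and without either HIF1A-/- hypoxia library (0.226 and 0.202). A stricter minimum of 1 CPM in 4 libraries left CASC8 out of the test. CASC11 passed the threshold with the replicate block only, with a log2 fold change of −1.68 and an adjusted p of 0.0286 from edgeR, beside −1.73 and 0.231 without it. Under that block 4706 of all 16686 gene bodies were called, beside 711 without it. CCAT1 had −0.90 (adjusted p = 0.327), PCAT1 −1.91 (0.357) and PVT1 −0.19 (0.781), all from edgeR and none called.

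Since the direction was alike at both oxygen levels, the genotype difference was also averaged over them, a contrast added after these values were seen. It called CASC8, CASC11 and CCAT1 lower, 3 of the 5 genes beside 10.0% of all gene bodies, and CASC8 among them had passed the filter mainly through WT libraries. The log2 fold changes were −2.43 for CASC8 (standard error 0.45, adjusted p = 0.0220 from edgeR), −1.62 for CASC11 (0.44, adjusted p = 0.0796) and −0.95 for CCAT1 (0.28, adjusted p = 0.0976). CASC8 was called under all 12 alternatives that kept it in the test, CASC11 under 6 of 12 and CCAT1 under 5 of 13. PCAT1 had −1.74 and an edgeR adjusted p of 0.159, or 0.0396 with the replicate block. It was in the test only through replicate 2 of the WT groups, so its lower level was built into the filter and the blocked value is not read as a call. PVT1 had −0.13, with a 95% interval from −0.56 to 0.30, so a difference as large as that fitted for CCAT1 lay outside its interval. The interval of CCAT1, −1.60 to −0.31, overlapped that of PVT1, and the 2 genes were not tested against each other. Without replicate 2 of WT normoxia, or without replicate 2 of WT hypoxia, CASC8 was the 1 gene called.

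Counted without a model, all 4 HIF1A-/- libraries lay below all 4 WT libraries for 4 of the 5 gene bodies, CCAT1, CASC8, CASC11 and PCAT1, beside 7.72% of all gene bodies tested. PVT1 was the exception. For PCAT1 and CASC8 a lower HIF1A-/- level was favoured by the filter. Among the 15062 gene bodies over 0.5 CPM in all 8 libraries, a set chosen after the values were seen, the share was 7.50%, and of the 3 genes in it CCAT1 and CASC11 were below and PVT1 was not. The libraries of one genotype share a line, so this count describes these 2 lines.

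The neighbouring transcripts of the desert were read in the same way. Of the 13 gene bodies tested within 2000 kb of MYC, MYC and the 5 genes included, 11 had lower fitted levels in HIF1A-/- cells in normoxia and 12 in hypoxia, with median log2 fold changes of −0.93 and −0.90. All 5 genes, chosen with earlier results known, were below 0 in both. The 7 neighbours without them and MYC had a median of −0.28 in normoxia, with 5 below 0. In hypoxia the neighbours had a median of −0.84, with 6 below 0. The 584 other gene bodies of chromosome 8 had medians of −0.03 and −0.05. The 13 include PCAT1, CASC8 and CCAT2, which passed the filter only or mainly through WT libraries. Several of the 13 also share an annotated gene on their strand, so they are not independent genes. In GENCODE, PCAT2, CASC19 and CCAT1 overlap the gene CASC19, and PCAT1, PRNCR1, CASC21 and CCAT2 overlap the gene PCAT1. PRNCR1, a noncoding RNA gene of the desert 656.2 kb before MYC, went the other way, with 0.82 in normoxia and 0.12 in hypoxia on 4 to 25 reads a library, and was not called. PCAT2, which starts 654.3 kb before MYC, had −0.28 and −0.84, with neither called. CASC21, whose body lies between CCAT1 and CASC8 on the plus strand, held 53.8 to 118 CPM in the WT libraries and 32.2 to 41.0 CPM in the HIF1A-/- libraries. Averaged over both oxygen levels its log2 fold change was −1.28 (adjusted p = 0.0432 from edgeR). Its call was lost without replicate 2 of WT normoxia (adjusted p = 0.142 from edgeR) and without replicate 2 of WT hypoxia (0.145). CCAT2, a short transcript of a colorectal risk region, held 0.369 to 1.38 CPM in WT and 0.0492 to 0.197 CPM in HIF1A-/- cells. It entered the test only through replicate 2 of the WT groups, its only libraries over 0.5 CPM, so no test of it is given. CASC19, whose body lies next to that of CCAT1 on the same strand, held 6.72 to 17.0 CPM in WT and 4.29 to 6.54 CPM in HIF1A-/- cells. Averaged over both oxygen levels it was not called (−1.03, adjusted p = 0.153 from edgeR). It was called with the replicate block (0.0599) and by DESeq2 (0.0436). These fits called 6006 and 2332 of all 16686 gene bodies in that contrast. In CASC19 and CASC21 too, replicate 2 of the WT cells was above replicate 1, by 2.04-fold to 2.46-fold, and replicate 2 of the HIF1A-/- cells was not. FAM84B, a coding gene 1178 kb before MYC, had log2 fold changes of −0.23 in normoxia and −0.21 in hypoxia, and CCDC26, a noncoding RNA gene 1944 kb after it, had 0.31 and −0.10, with neither called.

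**Figure D3:**
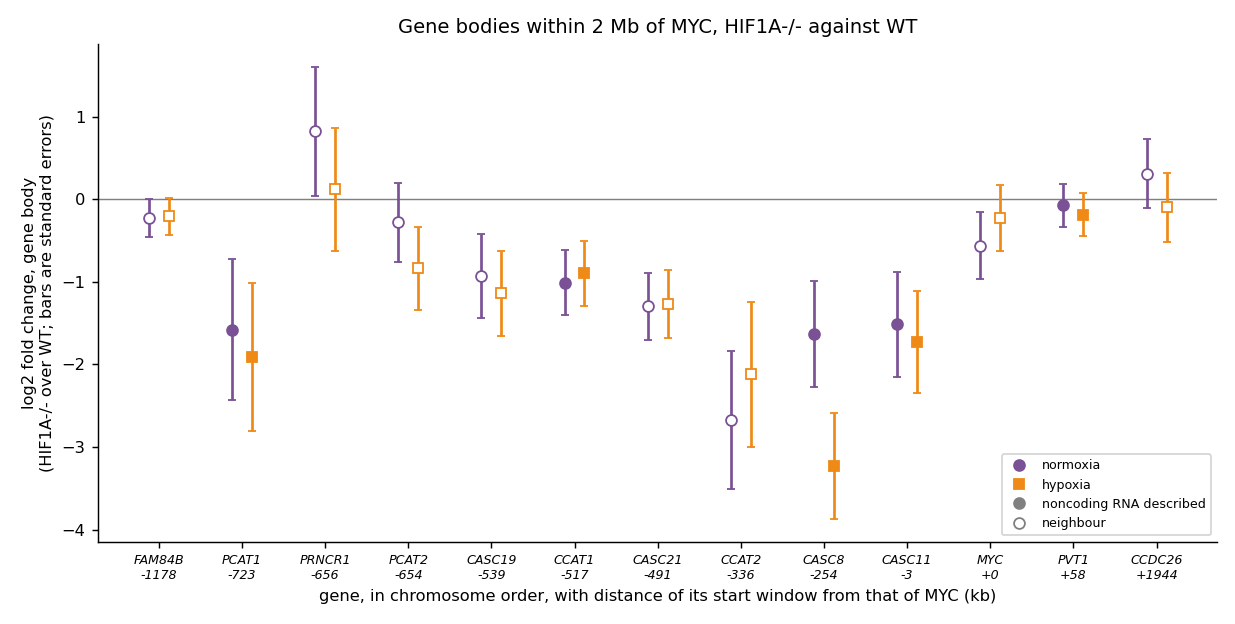
Log2 fold change of gene body reads in HIF1A-/- over WT cells (vertical axis) for the 13 gene bodies tested within 2000 kb of MYC, in chromosome order with the distance of each start window from that of MYC in kb, for normoxia (circles) and hypoxia (squares). Filled symbols are the 5 noncoding RNA genes, open symbols their neighbours and bars are standard errors. The genes from CASC19 to CASC11 lie below 0, whereas MYC, PVT1, FAM84B and CCDC26 lie nearer to it.

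MYC itself was followed beside them. Its gene body had 134 and 228 CPM in the normoxic WT pair, 129 and 148 CPM in the hypoxic WT pair, 158 and 83.4 CPM in the normoxic HIF1A-/- pair and 150 and 85.8 CPM in the hypoxic HIF1A-/- pair, so the genotypes overlapped. The averaged log2 fold change of the body was −0.40 (adjusted p = 0.479 from edgeR). Its start window did separate the genotypes, with 649 to 830 CPM in WT and 482 to 518 CPM in HIF1A-/- libraries, and the averaged log2 fold change of −0.57 (standard error 0.11) was called at an edgeR adjusted p of 0.0156 and under all 13 alternatives. In the single comparisons the same window had −0.57 in normoxia (adjusted p = 0.253 from edgeR, 0.0160 with the replicate block) and −0.58 in hypoxia (0.147 and 0.00693).

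PVT1 was also set against MYC within each library. The PVT1 body held 5.80 to 11.9 times as many reads as the MYC body over the 8 libraries. Per base, the log2 ratio of PVT1 to MYC was −2.84 and −3.59 in the normoxic WT pair, −2.83 and −3.05 in the hypoxic WT pair, −2.89 and −2.56 in the normoxic HIF1A-/- pair and −2.99 and −2.75 in the hypoxic HIF1A-/- pair. The lowest value came from replicate 2 of WT normoxia, where MYC was highest, and the groups overlapped.

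The start windows gave another view. CASC8 had no read in its start window in 7 libraries and 1 read in the eighth, and PCAT1 had 0 to 3 reads, so both stood at or under the floor of 3 reads and no fold is given. PVT1, CCAT1 and CASC11 passed the filter, 3 of the 5. PVT1 had 98.5 and 63.5 CPM in the normoxic WT pair, 79.9 and 59.0 in the hypoxic WT pair, 71.8 and 60.2 in the normoxic HIF1A-/- pair and 66.7 and 66.9 in the hypoxic HIF1A-/- pair. CCAT1 had 14.7 and 18.9 CPM in the normoxic WT pair, 10.5 and 16.4 in the hypoxic WT pair, 17.2 and 8.16 in the normoxic HIF1A-/- pair and 26.9 and 9.82 in the hypoxic HIF1A-/- pair. CASC11 had 8.57 and 10.8 CPM, then 8.41 and 11.2, then 10.8 and 6.06, then 12.6 and 4.68 in the same order of groups. The genotypes overlapped in all of these windows, and in HIF1A-/- cells replicate 1 was the higher library for CCAT1 and CASC11, the opposite of WT cells.

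None of the 3 start windows was called by edgeR, by DESeq2 or with the replicate block in any comparison given here, and none had an unadjusted p under 0.05. Over all 15212 start windows the share called was 0.0460% for hypoxia in WT cells, 0% for hypoxia in HIF1A-/- cells, 0.657% between genotypes in normoxia, 1.10% between genotypes in hypoxia and 6.39% for the average over both. All 4 HIF1A-/- libraries lay below all 4 WT libraries in 0 of the 3 windows, beside 6.30% of all start windows. Averaged over oxygen, the genotype log2 fold change was −0.01 at the CCAT1 start window (95% interval −0.75 to 0.73) beside −0.95 over its body, and −0.23 at the CASC11 start window (−0.97 to 0.52) beside −1.62 over its body. At PVT1 the 2 regions gave −0.18 and −0.13. The difference between start window and body was not tested.

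The density of reads per base in the start window over that in the body, a measure of polymerase held near the start, was 3.38 to 8.91 for PVT1, 2.12 to 4.43 for CCAT1 and 4.22 to 14.7 for CASC11 over the 8 libraries. The median over the 14494 genes tested in both tables was 5.83 to 11.5, and it was lowest in replicate 1 of the HIF1A-/- cells, where start window totals were also lowest. CCAT1 lay below that median in every library. For CASC11 the ratio was 10.1 and 4.39 in the normoxic WT pair, 7.19 and 4.22 in the hypoxic WT pair, 10.8 and 10.9 in the normoxic HIF1A-/- pair and 14.7 and 5.92 in the hypoxic HIF1A-/- pair, with overlap between genotypes.

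**Figure D4:**
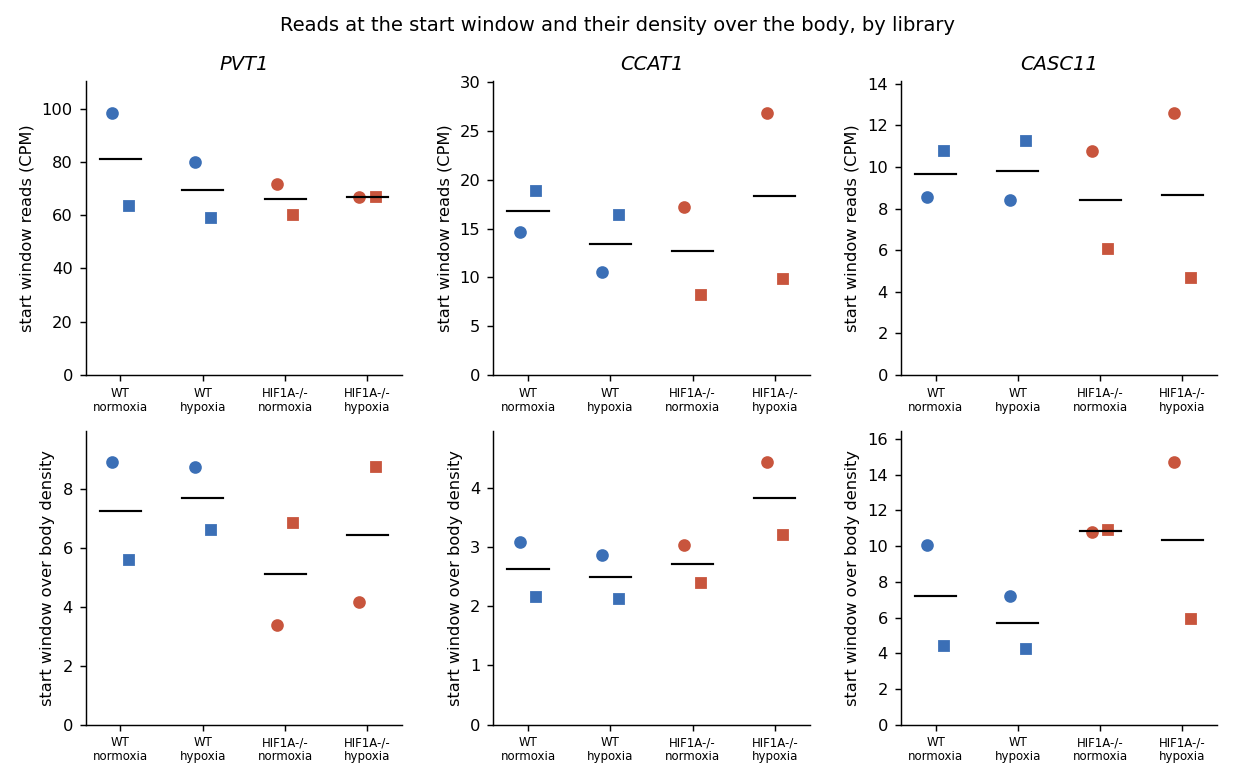
Start window reads in CPM (upper row) and the ratio of start window to gene body read density (lower row, no unit) for PVT1, CCAT1 and CASC11 in each library, by genotype and oxygen level, with replicate 1 as circles, replicate 2 as squares and the mean of 2 as a bar. WT and HIF1A-/- libraries overlap in every panel.

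Over the 8 libraries, the genes with the profile most like that of CCAT1 were CASC21 (Pearson r = 0.986), ANKRD18A (0.984) and CASC19 (0.983) among 15289 genes. The GENCODE annotation places the CASC19 and CCAT1 intervals in the same gene. For PVT1 they were UCHL5 (0.993), SREK1 (0.989) and GCSH (0.988). For CASC8 they were VGF (0.993), SH3YL1 (0.978) and KLHL31 (0.976), for CASC11 FLJ42351 (0.987), LRRC74A (0.984) and ANGPT2 (0.982), and for PCAT1 AHCYL1 (0.960), LINC00847 (0.960) and LINC01910 (0.960). Those of PVT1, CASC8 and PCAT1 all lie on other chromosomes, and of those of CASC11 only ANGPT2 lies on chromosome 8. MYC had r = 0.842 with PVT1 and 0.714 with CCAT1. With 8 libraries in 2 genotypes and as many replicate numbers, such values are given as a description.

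The genes that work with MYC were read from lists. Of 12 tested members of the MYC, MAX and MXD network, edgeR called 0 for hypoxia in WT cells, with 3 at an unadjusted p under 0.05 and 3 each by DESeq2 and under the blocked fit. In HIF1A-/- cells it called 0, with 1 at an unadjusted p under 0.05 and 0 by the other fits. Between genotypes in normoxia it called 0, with 1 at an unadjusted p under 0.05 and 0 by the other fits. Between genotypes in hypoxia 3 of the 12 were called lower in HIF1A-/- cells, beside 4.26% of all gene bodies, with 4 called by DESeq2 and 6 under the blocked fit. These were MXI1, which is also on the list of HIF targets (−1.32, adjusted p = 0.0318 from edgeR), MNT (−0.49, 0.0714) and MXD1 (−1.13, 0.0980). All 3 are partners of MAX that compete with MYC. Of the 12, however, 5 were above 0 in this comparison. The median log2 fold change of the list was −0.06 beside 0.005 over all gene bodies. Averaged over oxygen, MXI1 and MNT were called lower, 2 of the 12 beside 10.0%, with 3 by DESeq2 and 5 under the block. The difference in the hypoxia response was called for 0 of the 12, with 2 at an unadjusted p under 0.05, 0 by DESeq2 and 1 under the block. Of 32 tested genes that MYC is known to induce, 1 was called higher in WT hypoxia, the HIF target LDHA, beside 0.431% of all gene bodies, with 1 by DESeq2 and 3 under the block, and the median log2 fold change of the list was −0.23 beside −0.02 over all gene bodies. Between genotypes in normoxia 0 of these 32 were called by edgeR, by DESeq2 or with the replicate block, and 0 had an unadjusted p under 0.05. Between genotypes in hypoxia 1 of the 32 was called lower in HIF1A-/- cells, again LDHA (−1.60, adjusted p = 0.00245 from edgeR), with 2 at an unadjusted p under 0.05, 1 by DESeq2 and 5 under the block. Averaged over oxygen LDHA was again the 1 called, with 4 at an unadjusted p under 0.05, 1 by DESeq2 and 8 under the block. In HIF1A-/- cells hypoxia gave 0 called, 0 at an unadjusted p under 0.05 and 0 by the other fits, and for the difference in response 0 were called, with 1 at an unadjusted p under 0.05, 1 by DESeq2 and 1 under the block.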

How the data were processed

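PRO-seq libraries of WT and HIF1A-/- HCT116 cells in normoxia or hypoxia were read from 2 tables of raw counts deposited by the authors, 1 for gene bodies and 1 for start windows (TSS). Per the labels, libraries were strand-specific and aligned to GRCh37 with HISAT2 2.1.0, and the submitters' processing notes also name bcl2fastq 2.20.0.422, FastQC 0.11.5, SAMtools 1.5, Subread 1.6.2 with featureCounts, and HOMER. Reads that such counting finds in several features are usually dropped, so levels of overlapping genes on one strand are uncertain.

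Here genes over 0.5 CPM in at least 2 libraries were tested with edgeR 4.0.16 in R 4.3.3 (TMM scaling, quasi-likelihood test, all 8 libraries in 1 fit, no block), with Benjamini-Hochberg adjustment over all genes and calls at a false discovery rate of 10%. DESeq2 1.42.0, plain totals, no filter, a minimum of 1 CPM in at least 4 libraries, the replicate block and each library left out were alternatives. CPM and RPKM use table totals. Genotypes averaged over oxygen, the density ratio from raw reads per base and the motif search were added after the values were seen. The design text calls the replicates independent. Libraries with one replicate number deviated together from their group means in all 6 pairs of groups (r over genes 0.501 to 0.848 for bodies, 0.218 to 0.522 for start windows), so blocked values stand beside the results for the 5 genes, MYC, CASC19 and the gene lists whose call or count they change. The block lowered the common dispersion from 0.0376 to 0.0110 for bodies and from 0.0300 to 0.0138 for start windows. Calls over all genes rose under it, as counted at the end. Blocked calls therefore stand against larger shares of all genes than the percentages printed, which are unblocked. The members and lists were chosen with earlier results of these data known. Named are the 5 genes, MYC, HIF1A, other rows within 2000 kb of MYC that were called or adjoin them, for each gene the 3 most correlated others (at least 1 CPM on average, log2 CPM), and called genes of the lists. Positions come from the tables and exons from GENCODE v44 on the same build. No sequence is printed.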

Additional observations from a re-analysis of the deposited data

Results flagged for a closer look

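The CCAT1 start window differed from normoxia to hypoxia with opposite signs in the 2 genotypes, but neither response was called. The fitted log2 fold change was −0.27 in WT cells (95% interval −1.31 to 0.76) and 0.53 in HIF1A-/- cells (−0.55 to 1.61). How many of all start windows have such signs was not counted. In both WT replicate pairs hypoxia minus normoxia was below 0 on the log2 scale, at −0.48 and −0.20, and in both HIF1A-/- pairs it was above 0, at 0.64 and 0.26. The mean WT response minus the mean HIF1A-/- response was −0.79. It rests on 35 to 98 reads per library, and no test of the difference is given.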

How the results depend on the processing

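Counts of the 5 genes called at gene bodies depended on the replicate block. With it, WT hypoxia had 1 called (CASC8) in place of 0, the genotypes in normoxia 1 (CASC8) in place of 0, the genotypes in hypoxia 2 in place of 1, and the average over oxygen 4 in place of 3. The gene added to that average is PCAT1. It entered the test only through replicate 2 of the WT groups, so it is not read as a call. The block also raised the counts over all gene bodies, as given below. A minimum of 1 CPM in 4 libraries left 0 called between genotypes in hypoxia and 1 (CCAT1) over both oxygen levels, because it tested fewer genes. Leaving out 1 library gave 0 to 1 called between genotypes in hypoxia and 1 to 3 over both oxygen levels, and 0 in every other comparison of bodies or start windows. Where a library is left out, its partner is assumed to vary like the other groups.

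The log2 fold change of some genes that were not called changed sign when 1 library was left out, and the cause was not tested. For bodies in WT hypoxia the ranges were −0.64 to 0.45 for CCAT1, −0.25 to 1.35 for CASC11 and −0.48 to 0.41 for PCAT1. In HIF1A-/- hypoxia they were −0.55 to 0.17 for PVT1, −0.20 to 0.35 for CCAT1, −0.58 to 0.26 for CASC8, −1.66 to 0.34 for PCAT1 and −0.58 to 0.51 for MYC. Between genotypes PVT1 ranged from −0.43 to 0.24 in normoxia, −0.54 to 0.0917 in hypoxia and −0.31 to 0.0357 over both, and MYC from −0.74 to 0.14 in hypoxia. The difference in response ranged from −0.26 to 0.47 for PVT1, −0.73 to 0.36 for CCAT1, −0.49 to 1.10 for CASC11, −0.41 to 1.604 for PCAT1 and −0.92 to 0.18 for MYC. At start windows in WT hypoxia the ranges were −0.47 to 0.15 for PVT1, −0.66 to 0.0179 for CCAT1, −0.18 to 0.26 for CASC11 and −0.14 to 0.23 for MYC. In HIF1A-/- hypoxia they were −0.12 to 0.15, −0.35 to 1.14, −0.82 to 0.60 and −0.0171 to 0.0650 in the same order. Between genotypes in normoxia they were −0.56 to 0.0596 for PVT1, −1.03 to 0.0679 for CCAT1 and −0.66 to 0.19 for CASC11, and in hypoxia −0.27 to 0.14, −0.48 to 0.96 and −1.09 to 0.32. Over both oxygen levels they were −0.45 to 0.27 for CCAT1 and −0.65 to 0.0533 for CASC11. The CCAT1 body in WT hypoxia, at −0.02, also turned to 0.0125 with plain totals and 0.000423 with the stricter minimum, and its start window over both oxygen levels, at −0.01, to 0.0039 with DESeq2.

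Over all gene bodies the calls rose from 72 to 919 with the block and 175 with DESeq2 in WT hypoxia, from 0 to 6 and 8 in HIF1A-/- hypoxia, from 297 to 1722 and 630 between genotypes in normoxia, from 711 to 4706 and 1311 in hypoxia, and from 9 to 64 and 68 for the difference in response, where no filter gave 17. Over both oxygen levels the block gave 6006 in place of 1676. At start windows the block gave 153 in place of 7, 1 in place of 0, 652 in place of 100, 2196 in place of 168 and 3398 in place of 972, in the same order of comparisons. There, no filter gave 63, 2, 406, 1063 and 2039, and DESeq2 gave 15 in WT hypoxia and 312 between genotypes in hypoxia. Leaving out 1 library moved the counts over all gene bodies, and so the shares set beside the 5 genes, to 0 to 89 in WT hypoxia, 75 to 269 and 165 to 863 between genotypes in normoxia and hypoxia, 0 to 10 for the difference in response and 650 to 2004 over both oxygen levels. At start windows the counts moved as well, and the difference in response is not given there. The count for HIF1A-/- hypoxia did not move at bodies or start windows. Body counts under 20 reads limit PCAT1 in every library. They also limit CASC8 and CASC11 in every HIF1A-/- library and in replicate 1 of WT normoxia.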
